A study of Mus musculus with 2 samples.

Results

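The genes described here encode enzymes that make foreign and internal compounds more soluble or less reactive. They are the UDP-glucuronosyltransferases (Ugt), glutathione transferases (Gst), sulfotransferases (Sult), carboxylesterases (Ces), aldo-keto reductases of class Akr1 and aldehyde dehydrogenases (Aldh). Members were the protein-coding genes of the RefSeq annotation of mm10 whose symbols begin with Ugt1 to Ugt3, Gst followed by a, k, m, o, p or t, Sult1 to Sult6, Ces1 to Ces5, Akr1, or Aldh and a digit. They numbered 119 of 21774 protein-coding genes on the chromosomes, and all 119 had a value, as did 21225 protein-coding genes in all. The Ugt, Gst, Sult and Aldh families had 21 members each, Ces had 19 and Akr1 had 16. No expression was measured, so the genes are identified by their symbols alone.

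The data came from mouse embryonic stem cells (46C line, strain 129P2/Ola), kept on gelatin with leukemia inhibitory factor, a cytokine that holds such cells undifferentiated. There was 1 library of DNA replicated early in S phase and 1 library of DNA replicated late, from cells given 50 µM bromodeoxyuridine (BrdU, a thymidine analogue) for 2 h and sorted by DNA content. The authors merged both libraries into a single timing score at each genomic position, smoothed over 300 kb. The name of the deposited table sets early against late, and on that basis a positive score is read as early; 0 is the zero point as deposited. Log base, scaling and read depth are unknown, so the score is not read as a fold and no counting error can be given. With no replicate library there is no test between conditions and no p-value, and each difference below is a description of this 1 pair of libraries. The score is a timing and not an expression level. The 6 pluripotency genes Pou5f1, Nanog, Sox2, Klf4, Esrrb and Zfp42 scored between 0.65 and 1.64, which describes their timing and does not check the cell type.

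In the liver, gut and kidney, the transferases attach glucuronic acid, glutathione or sulfate to drugs, steroids, bile pigments and products of oxidation. Carboxylesterases cut esters and amides, and the aldo-keto reductases and aldehyde dehydrogenases remove reactive carbonyl groups, in the case of retinaldehyde to make the signalling molecule retinoic acid. Many of these genes arose by tandem duplication and lie side by side in arrays. Early replication is, as a general background, more usual in gene-rich and transcribed chromatin than in gene-poor chromatin.

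The promoters of 8 members follow because they span the range of scores and show how differently the start sites of these enzymes are built. Each runs from 250 bases before to 50 bases after a RefSeq gene start (RefSeq, GRCm38.p6), 5′ to 3′ on the gene's own strand, and capitals mark each CpG, the dinucleotide that carries DNA methylation in mammals. Sult2b1 had the highest score of all members, Sult1a1 had nearly the same score, and Gstp1 was early. The start used for Sult1a1 lies inside its annotated gene body and not at its 5′ end. Aldh1a2 scored close to 0, Ugt1a10 and Ugt1a1 are the ends of 1 gene array, and Ugt2b37 and Sult2a8 were among the latest.
Sult2b1 (chr7:45759563-45759862, minus strand): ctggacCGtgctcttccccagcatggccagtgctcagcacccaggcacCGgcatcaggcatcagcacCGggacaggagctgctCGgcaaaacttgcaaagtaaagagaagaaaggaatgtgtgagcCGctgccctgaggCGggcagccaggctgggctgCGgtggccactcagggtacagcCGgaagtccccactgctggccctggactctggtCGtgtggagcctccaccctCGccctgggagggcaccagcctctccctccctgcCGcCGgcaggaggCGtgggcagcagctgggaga
Sult1a1 (chr7:126676369-126676668, minus strand): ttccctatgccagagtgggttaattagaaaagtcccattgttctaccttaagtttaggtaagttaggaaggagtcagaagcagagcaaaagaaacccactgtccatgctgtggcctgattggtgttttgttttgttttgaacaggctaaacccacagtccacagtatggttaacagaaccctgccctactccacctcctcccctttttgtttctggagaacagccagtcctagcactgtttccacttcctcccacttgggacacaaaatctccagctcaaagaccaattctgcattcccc
Gstp1 (chr19:4037863-4038162, minus strand): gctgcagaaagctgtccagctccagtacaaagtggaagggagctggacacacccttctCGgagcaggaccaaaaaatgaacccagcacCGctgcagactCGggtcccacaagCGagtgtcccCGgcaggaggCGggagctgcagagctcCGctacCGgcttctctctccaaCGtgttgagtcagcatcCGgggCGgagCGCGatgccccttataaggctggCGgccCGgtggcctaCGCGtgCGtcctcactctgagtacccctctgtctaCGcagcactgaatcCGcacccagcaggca
Aldh1a2 (chr9:71215539-71215838, plus strand): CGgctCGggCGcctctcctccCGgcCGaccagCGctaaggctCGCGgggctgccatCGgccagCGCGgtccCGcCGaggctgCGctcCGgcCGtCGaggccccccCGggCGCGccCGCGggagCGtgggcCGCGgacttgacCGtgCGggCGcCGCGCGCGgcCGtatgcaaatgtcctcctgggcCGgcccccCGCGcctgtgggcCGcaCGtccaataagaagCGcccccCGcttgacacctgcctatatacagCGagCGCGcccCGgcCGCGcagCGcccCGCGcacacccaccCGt
Ugt1a10 (chr1:88055161-88055460, plus strand): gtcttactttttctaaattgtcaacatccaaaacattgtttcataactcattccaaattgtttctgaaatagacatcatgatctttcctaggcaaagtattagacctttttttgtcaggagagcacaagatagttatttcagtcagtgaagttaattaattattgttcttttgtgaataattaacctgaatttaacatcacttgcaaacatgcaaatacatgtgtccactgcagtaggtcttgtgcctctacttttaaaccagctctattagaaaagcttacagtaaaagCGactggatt
Ugt1a1 (chr1:88211709-88212008, plus strand): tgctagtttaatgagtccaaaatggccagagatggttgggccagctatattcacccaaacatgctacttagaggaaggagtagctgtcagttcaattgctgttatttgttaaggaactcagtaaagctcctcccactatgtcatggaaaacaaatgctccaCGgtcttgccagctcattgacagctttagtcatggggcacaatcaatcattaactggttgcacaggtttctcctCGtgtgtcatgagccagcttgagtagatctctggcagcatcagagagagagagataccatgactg
Ugt2b37 (chr5:87254739-87255038, minus strand): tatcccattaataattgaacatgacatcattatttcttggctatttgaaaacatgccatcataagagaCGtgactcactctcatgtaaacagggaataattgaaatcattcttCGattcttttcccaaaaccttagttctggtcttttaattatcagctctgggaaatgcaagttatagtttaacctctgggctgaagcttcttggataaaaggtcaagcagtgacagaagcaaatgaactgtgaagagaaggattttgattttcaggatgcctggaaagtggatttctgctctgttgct
Sult2a8 (chr7:14446538-14446837, minus strand): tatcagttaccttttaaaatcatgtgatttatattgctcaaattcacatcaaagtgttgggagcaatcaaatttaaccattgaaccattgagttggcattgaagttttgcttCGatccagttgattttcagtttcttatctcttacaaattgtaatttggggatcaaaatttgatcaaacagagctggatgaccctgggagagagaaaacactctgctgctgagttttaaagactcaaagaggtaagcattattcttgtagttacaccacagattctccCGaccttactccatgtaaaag

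Early and late members were present in nearly equal number. Of the 119 members 62 (52.1%) scored above 0, against 15597 of 21225 protein-coding genes (73.5%). The median was 0.11 (quartiles -0.58 and 1.24) over members and 1.02 (quartiles -0.08 and 1.52) over all protein-coding genes. Scores above 1 were found for 36 members and scores below -1 for 14, where the shares over all protein-coding genes were 50.5% and 9.59%. Scores within 0.25 of 0 were found for 19 members, against 8.74% of protein-coding genes. Measured from the autosomal median instead of 0, 77 of 119 members were early, against 78.5% of protein-coding genes. The range ran from the steroid sulfotransferase gene Sult2a7 at -1.57 to the cholesterol sulfotransferase gene Sult2b1 at 1.98.

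Members cluster in the genome, so the count by gene weighs large arrays heavily. Members of 1 family with gaps of at most 300 kb, the smoothing width, were taken as 1 locus, which gave 44 loci on 16 chromosomes. Of these, 25 held a single member, 12 held 2 to 4 and 7 held 5 or more. By locus the balance was different: 32 of 44 loci (72.7%) had a median above 0, and the median over loci was 0.93. The 73.5% of all protein-coding genes counts single genes, which were not joined into loci, so it is not a matching value. Of the 25 members alone at their locus 22 scored above 0 (88.0%, median 1.26). Of the 32 members at loci of 2 to 4, 26 did (81.2%, median 1.26), and of the 62 members at loci of 5 or more, 14 did (22.6%, median -0.48). Of the 57 late members 48 thus belonged to arrays of 5 or more. Of the 19 loci with 2 or more members 14 are shorter than 300 kb, and members of such a locus are not separate measurements. Close neighbours in the longer loci share smoothed values too.

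**Figure D1:**
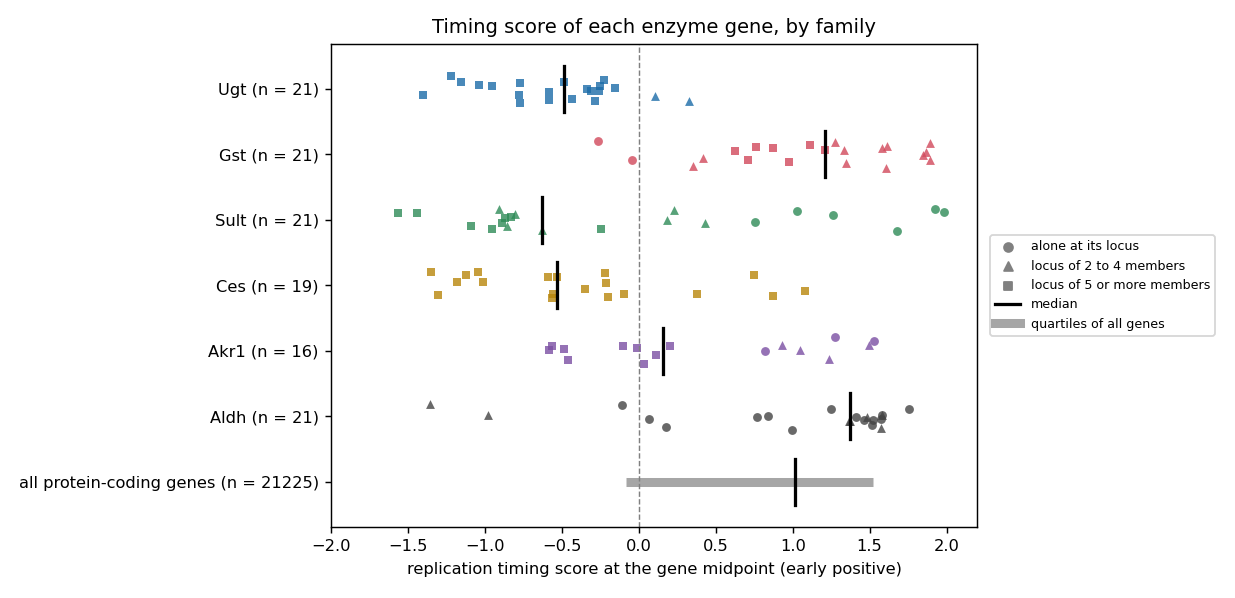
Timing score (horizontal axis, no unit, early positive) of each of the 119 members by family, with marker shapes for the number of members at the locus, vertical bars for the medians, and the quartiles of all protein-coding genes as a grey bar. Ugt and Ces members lie mostly below 0, with 2 of 21 and 4 of 19 above it, Gst and Aldh members mostly above 0, with 19 of 21 and 18 of 21, and the squares of large arrays fill the late side. Of all protein-coding genes 73.5% lie above 0.

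The families differed in their balance, where 73.5% of all protein-coding genes scored above 0. Gst had 19 of 21 members above 0 (median 1.21) and Aldh 18 of 21 (median 1.37). Akr1 had 10 of 16 (median 0.15) and Sult 9 of 21 (median -0.63). Ces had 4 of 19 (median -0.53) and Ugt 2 of 21 (median -0.49), and no Ugt member reached 1. Both counts depend on the zero point: measured from the autosomal median, Ces had 8 early members and Ugt 7. At the lower-coordinate ends of the genes Ugt had 5 above 0. The Sult median turned to 0.89 when each of its 10 loci was counted once, since 8 of its 12 late members belong to 1 array. By locus, Gst had 5 of 7 medians above 0, Akr1 4 of 5 and Aldh 15 of 17, so the Gst count by gene rests largely on clusters. The Ces family lies at 2 loci and the Ugt family at 3, so their counts rest on very few places.

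**Figure D2:**
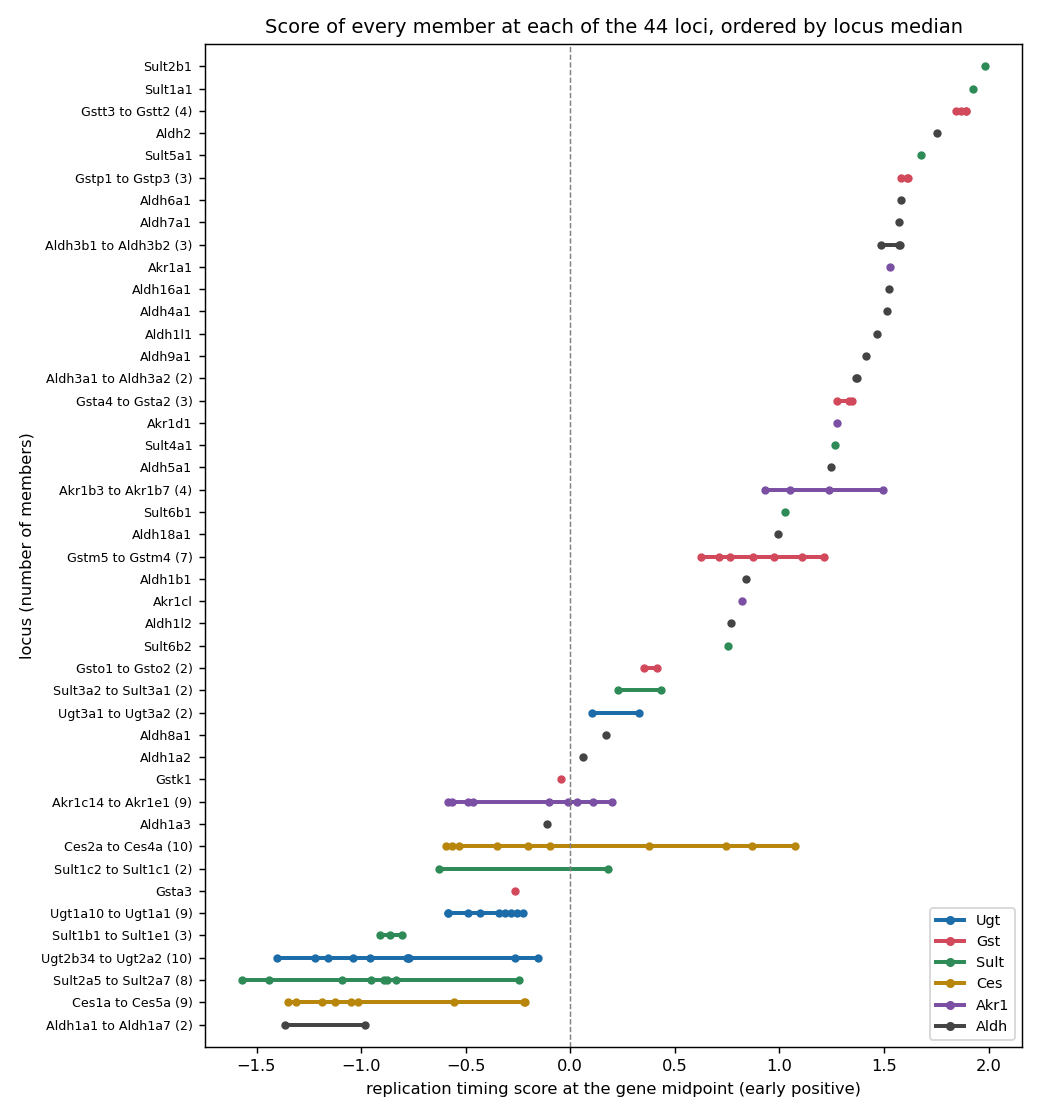
Scores (horizontal axis, no unit, early positive) of all members at each of the 44 loci, ordered by locus median; points are members, bars join the lowest and highest member, and the number of members is given in brackets. The locus from Ces2a to Ces4a spans -0.59 to 1.08, while the 4 Gstt genes lie between 1.85 and 1.89.

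The Ugt1a genes, which include the bilirubin-conjugating enzyme Ugt1a1, crossed from early to late along their own array. The 9 genes lie on the plus strand of chromosome 1 (88055411 to 88220002) and use alternative first exons joined to shared last exons, so their bodies overlap and end together. At the midpoints all 9 were below 0, from -0.23 for Ugt1a10 to -0.58 for Ugt1a1 and Ugt1a2. Midpoints of overlapping genes hide where transcription starts, and the start sites spread further. At its start site Ugt1a10 scored 0.16, Ugt1a9 0.088, Ugt1a8 0.019 and Ugt1a7c -0.0035. Ugt1a6a scored -0.20 at its start site, Ugt1a5 -0.37, Ugt1a2 -0.54 and Ugt1a1 -0.58, and the shared end of the array scored -0.61. The change of sign lay between positions 88087604 and 88093234. The first exons of the array thus lay on both sides of the zero point as deposited, with the Ugt1a1 end the later. Outside the array the score was 1.63 at 300 kb on the lower-coordinate side and 0.011 at 300 kb on the other, and the late run that began inside the array, at position 88093234, was 0.414 Mb long.

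The Ugt2 array, whose enzymes conjugate steroids and odorants, was late throughout. Its 10 genes on chromosome 5 (86889770 to 87490871) scored below 0, with a locus median of -0.87. Ugt2b34 at the lower-coordinate end scored -0.15 and its neighbour Ugt2b1 -0.26, while Ugt2b35, only 85.5 kb from Ugt2b1, scored -0.96. Ugt2b36 scored -1.16, Ugt2b5 -1.22, and Ugt2b37 -1.40, the lowest of the family. The score was less late again at Ugt2a3 (-1.04), Ugt2b38 (-0.77) and the overlapping genes Ugt2a1 and Ugt2a2 (both -0.78), of which Ugt2a1 is known for olfactory tissue. The array therefore had its latest point in the middle and was closest to 0 at its lower-coordinate end.

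Sulfotransferase genes continued the late stretch of the Ugt2 array. Sult1b1 begins 22.5 kb beyond it, and Sult1b1, Sult1d1 and the estrogen sulfotransferase gene Sult1e1 scored -0.80, -0.86 and -0.91. A single late run of 2.1 Mb held all 13 genes of both families. The third Ugt locus, Ugt3a1 and Ugt3a2 on chromosome 15 (9279822 to 9370955), was the only one above 0, at 0.33 and 0.11. In humans the enzymes of this class use sugars other than glucuronic acid. A change of sign lay 26.1 kb from the midpoint of Ugt3a2, and the score at 300 kb beyond the locus was -1.21.

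Both carboxylesterase loci are on chromosome 8, and they took different courses. At the first (93020214 to 93535879) the 8 Ces1 genes, which encode the main esterases of liver and plasma, and Ces5a were all below 0. Ces1a and Ces1b scored -0.22 each, Ces1c -0.56, Ces1d -1.13, Ces1e -1.31 and Ces1f -1.35, the lowest. On the far side Ces1g scored -1.18, Ces1h -1.01 and Ces5a -1.05. Ces1a and Ces1b were thus near 0, and the members of the array spanned 1.13 score units. The late run that held the locus was 1.05 Mb long.

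The second locus (104734003 to 105150109) crossed the zero point inside its Ces2 genes. The Ces2 enzymes, intestinal and hepatic esterases, came first: Ces2a scored -0.53, Ces2b -0.59, Ces2c -0.57, Ces2e -0.35, Ces2f -0.20 and Ces2g -0.095. The last Ces2 gene, Ces2h, scored 0.38, Ces3a and Ces3b 0.75 and 0.87, and Ces4a 1.08. From Ces2b on, every next gene was earlier, over a range of 1.67, and the change of sign fell between positions 104969663 and 104975166. The 6 late Ces2 genes lay in a late run of 0.287 Mb, which is shorter than the smoothing width, between scores of 1.26 at 300 kb below the locus and 1.61 at 300 kb above it.

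**Figure D3:**
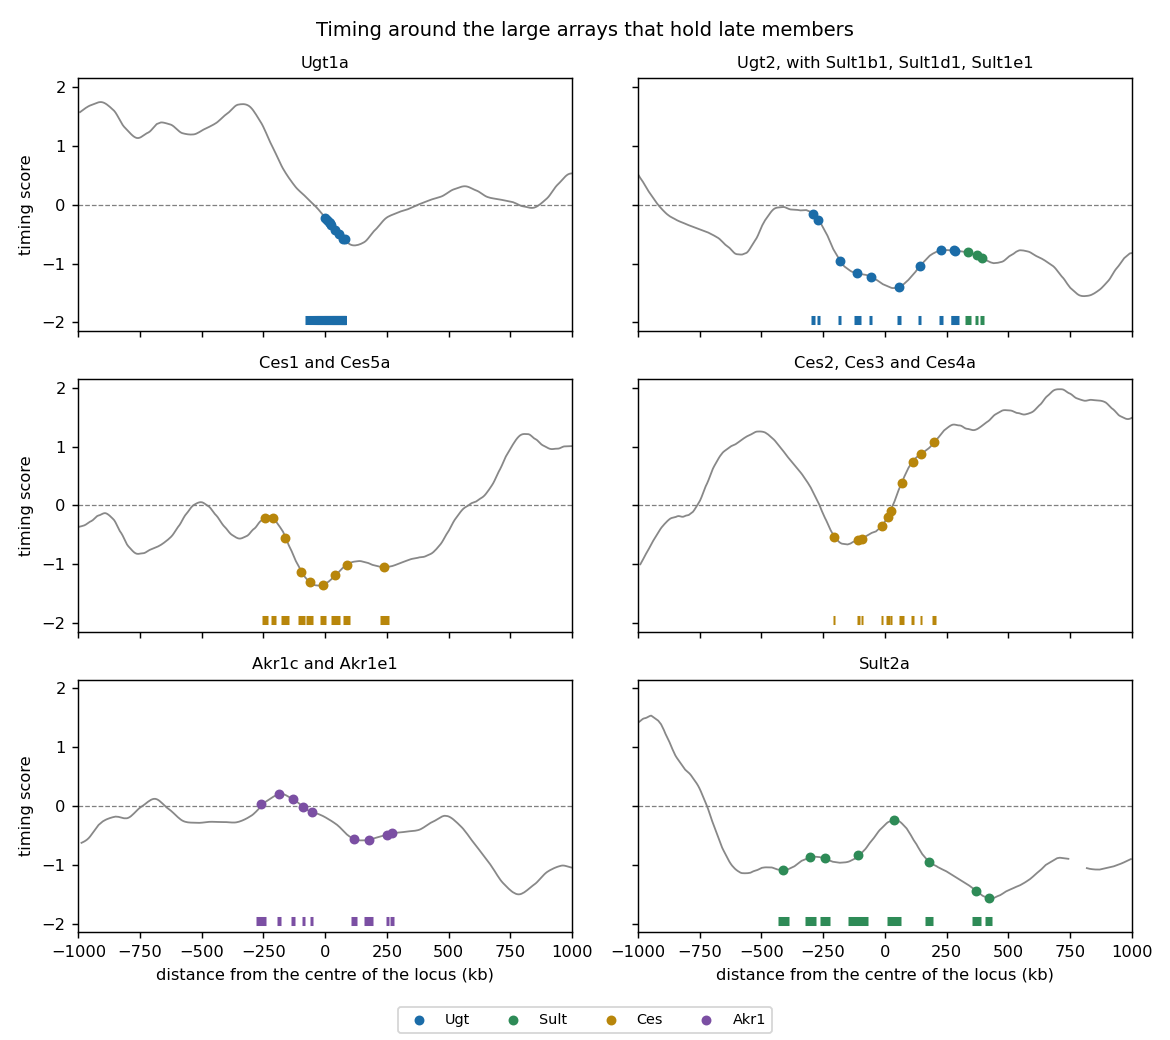
Timing score (vertical axis, no unit) against distance from the centre of the locus (horizontal axis, kb) for the 6 large arrays with late members; grey lines are the deposited positions, points are member midpoints coloured by family and bars at the bottom are gene bodies. Ugt1a and Ces2 to Ces4a lie on slopes that cross 0, while the Ugt2, Ces1 and Sult2a genes lie inside late stretches and range down to -1.40, -1.35 and -1.57.

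The aldo-keto reductase array lay around the zero point. It holds 8 Akr1c genes, which encode steroid-converting enzymes, and Akr1e1 on chromosome 13 (4048991 to 4609164). Akr1c14 scored 0.033, the progesterone-inactivating enzyme gene Akr1c18 0.20 and Akr1c13 0.11, all 3 in an early run of only 0.155 Mb. Akr1c19 scored -0.012, Akr1c12 -0.10, Akr1c6 -0.57, Akr1c20 -0.58, Akr1c21 -0.49 and Akr1e1 -0.46. The 5 genes from Akr1c14 to Akr1c12 were within 0.25 of 0, a distance that the choice of zero point can overturn. The other Akr1 genes were early, among them Akr1cl on chromosome 1, a relative of the array, at 0.82.

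Akr1b genes on chromosome 6 (34303930 to 34423137) were early with a slope. Aldose reductase, encoded by Akr1b3 and the enzyme that turns glucose into sorbitol, scored 1.496, followed in order by Akr1b8 at 1.24, Akr1b10 at 1.05 and Akr1b7 at 0.93. Akr1a1, an aldehyde reductase that serves vitamin C synthesis in mice, scored 1.53, and Akr1d1, a reductase of bile acid synthesis, scored 1.28. No Akr1 member was below -1.

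The Sult2a array was the latest part of the sulfotransferase family. Its 8 genes on chromosome 7 (13623967 to 14493023), whose enzymes sulfate steroids and bile acids, were all below 0. Sult2a5 scored -1.09, Sult2a2 -0.87, Sult2a1 -0.89 and Sult2a4 -0.83. Sult2a3 stood apart at -0.24, with -0.95 for its neighbour Sult2a6, and the array ended with Sult2a8 at -1.44 and Sult2a7 at -1.57. Within the array only Sult2a3 came near 0. The array held 10.5 positions per 100 kb, against 15.0 over the genome. The Ugt2 array held 13.5, the locus from Ces2a to Ces4a 12.7, the Akr1c array 12.9 and the Ces1 array 15.9. Among loci above 0, that of Sult3a2 and Sult3a1 held 9.73, that of Ugt3a1 and Ugt3a2 11.0 and the Gstm array 16.7. Whether reads that match several copies of an array were kept is not known, and the part of these densities in the scores was not tested.

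The sulfotransferase genes that stand alone were early. Sult2b1 on the same chromosome (45729981 to 45759672) scored 1.98, and Sult1a1, the main phenol sulfotransferase gene (126672865 to 126690443), scored 1.93. Sult5a1 scored 1.68, the brain enzyme gene Sult4a1 1.26, Sult6b1 1.03 and Sult6b2 0.75. Relatives were thus found at opposite ends of the scale, with 3.55 score units between Sult2b1 and Sult2a7 and 2.84 between Sult1a1 and Sult1e1. The smaller loci lay between: Sult3a2 and Sult3a1 on chromosome 10 scored 0.23 and 0.43. Sult1c2 and Sult1c1 on chromosome 17, whose midpoints are 138 kb apart, scored 0.18 and -0.63 on either side of a change of sign.

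Glutathione transferase genes were mostly early, class by class. The 4 theta genes on chromosome 10 (75774117 to 75837419) were the earliest of the family, with Gstt3 and Gstt1 at 1.89, Gstt4 at 1.87 and Gstt2 at 1.85. The 3 pi genes on chromosome 19 scored 1.62 for Gstp1, 1.61 for Gstp2 and 1.58 for Gstp3. The alpha genes on chromosome 9 scored 1.33 for Gsta4, which acts on aldehydes from lipid oxidation, 1.27 for Gsta1 and 1.35 for Gsta2, where the nearest position to Gsta1 was 12.1 kb away. The omega genes Gsto1 and Gsto2 scored 0.42 and 0.35, and a change of sign lay 52.0 kb from the midpoint of Gsto2.

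The mu genes formed the one large array of 5 or more genes without a late member. On chromosome 3 (107895854 to 108045179) the scores were in order along the chromosome, from Gstm5 at 0.62 through Gstm7 at 0.71, Gstm6 at 0.76, Gstm3 at 0.87, Gstm2 at 0.97 and Gstm1 at 1.11 to Gstm4 at 1.21. Only 149 kb separate the ends of this array, so the steady order is that of a smoothed slope and not of 7 independent values. The exceptions of the family were 2 genes that stand alone. Gsta3 on chromosome 1, an alpha gene away from its relatives, scored -0.27, a difference of -1.54 from Gsta1, the lowest of the chromosome 9 alpha genes, and the mitochondrial and peroxisomal kappa gene Gstk1 scored -0.044.

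**Figure D4:**
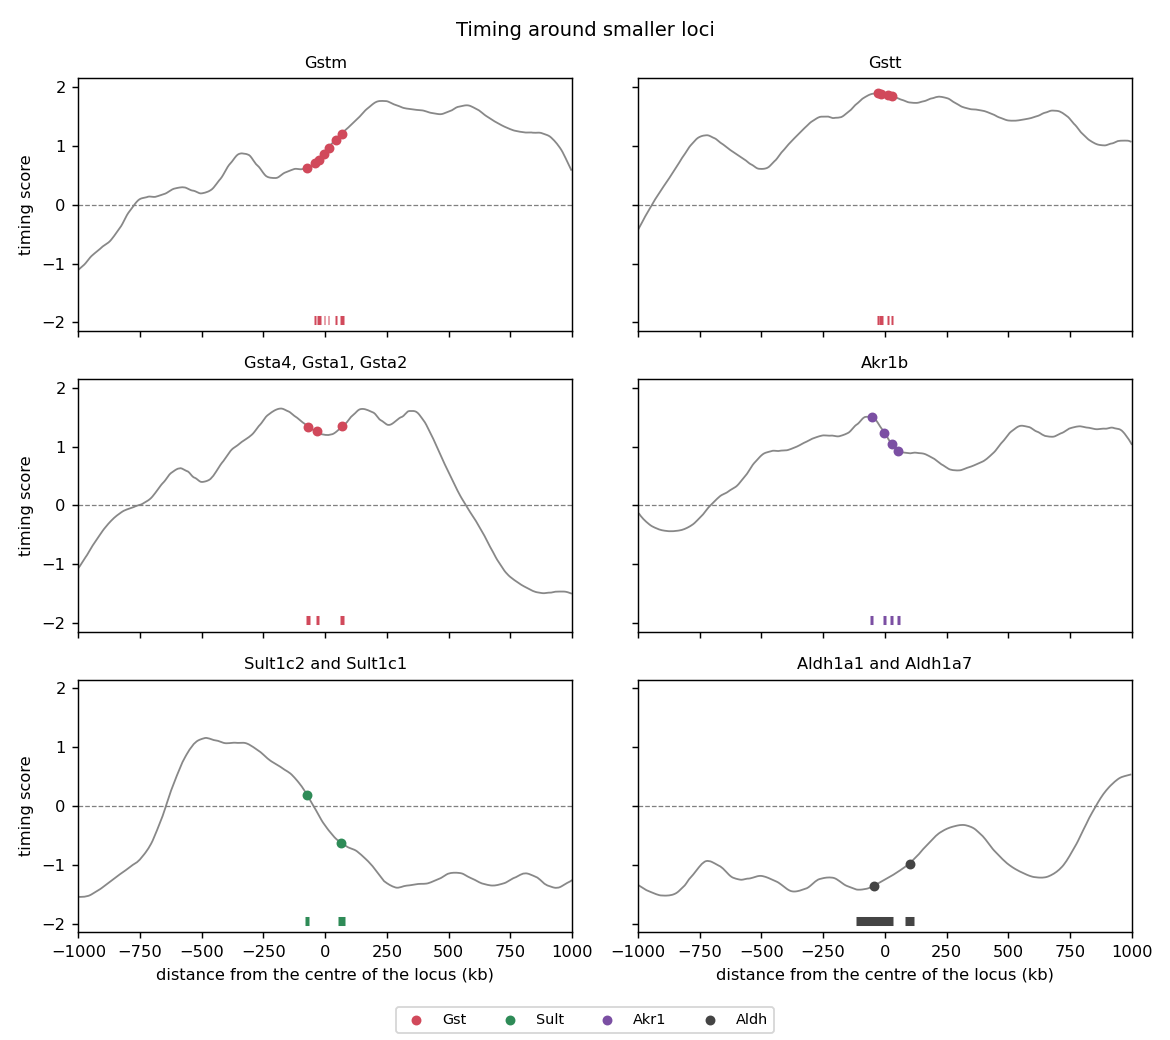
Timing score (vertical axis, no unit) against distance from the centre of the locus (horizontal axis, kb) at 6 smaller loci, drawn as for the large arrays: grey lines are deposited positions, points are member midpoints and bars are gene bodies. The 4 Gstt genes sit on an early plateau, Gstm (0.62 to 1.21) and Akr1b (1.496 to 0.93) on early slopes, Sult1c2 and Sult1c1 on both sides of 0, and Aldh1a1 and Aldh1a7 in a late stretch.

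Aldehyde dehydrogenase genes lie at 17 loci, and 15 had a median above 0. The genes of amino acid, lipid and folate metabolism were early: mitochondrial Aldh2, which clears acetaldehyde, scored 1.75, Aldh6a1 of valine breakdown 1.58, Aldh7a1 of lysine breakdown 1.57 and Aldh4a1 of proline breakdown 1.51. Aldh16a1 scored 1.52, the folate enzyme genes Aldh1l1 and Aldh1l2 1.47 and 0.77, Aldh9a1 of carnitine synthesis 1.41, and Aldh5a1 of GABA breakdown 1.25. Proline synthesis gene Aldh18a1 scored 0.99 and mitochondrial Aldh1b1 0.84. Aldh3a1 and the fatty aldehyde enzyme gene Aldh3a2 both scored 1.37. Aldh3b1, Aldh3b3 and Aldh3b2 scored 1.48, 1.57 and 1.58, 53.7 kb from the Gstp genes and at about the same level. Aldh8a1 was the least early of these at 0.17.

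The late Aldh members were all of subfamily Aldh1a, in which Aldh1a1, Aldh1a2 and Aldh1a3 make retinoic acid from retinaldehyde. Aldh1a1 scored -1.36 and its neighbour Aldh1a7 -0.98 (chromosome 19, 20492583 to 20727556), in a late run of 2.58 Mb. Aldh1a3 scored -0.11 and Aldh1a2 0.062, both close to 0. The median of the 4 Aldh1a genes was -0.55, and the other 17 members of the family lay between 0.17 and 1.75. Aldh1a1 spans 151 kb, and its score was -1.42 at its lower-coordinate end and -1.17 at the other.

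The number of neighbouring genes was compared next. In windows of 500 kb on each side of the midpoint, the 56 members with 10 to 19 protein-coding neighbours scored above 0 in 20 cases (35.7%), against 82.2% of all protein-coding genes in that class. With 20 or more neighbours 29 of 36 did (80.6%), against 81.0%, and with 5 to 9 neighbours 11 of 23 did (47.8%), against 70.2%. Only 4 members had fewer, of which 2 were above 0, against 31.1%. Most late members with 10 to 19 neighbours lie in the Ugt1a, Ugt2 and Ces1 arrays, so the 35.7% rests on few places. Arrays also supply their own neighbours. Counting only genes outside the 6 families, members above 0 had a median of 17.0 neighbours and members below 0 a median of 6.0, and of 26 members with 0 to 4 such neighbours 3 were above 0. Counting all protein-coding neighbours, the medians were 18.5 for members above 0 and 13 for members below 0, against 17.0 and 9.0 for protein-coding genes above and below 0. Late members thus had more neighbours than late protein-coding genes when their own arrays were counted, and the count outside the families has no matching value for all genes.

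Late members lay in late stretches of moderate length. Runs of positions of one sign were followed to the next change of sign or a gap over 300 kb. No late member (0 of 57) lay in a run of 4 Mb or more, against 17.0% of late protein-coding genes. The longest late run with a member, 2.91 Mb, held Gsta3. Of the 57, 48 belonged to arrays of 5 or more, in each of which the late members share 1 run. The count thus rests on few runs. Early runs of that length held 18 of 62 early members (29.0%), near the 30.2% of early protein-coding genes. Among them were Sult4a1 in a run of 10.9 Mb on chromosome 15 and Aldh4a1 in a run of 10.8 Mb on chromosome 4. Runs under 0.5 Mb held 19 of 119 members (16.0%), against 8.39% of protein-coding genes. They were the 9 Ugt1a genes, 6 Ces2 genes, 3 Akr1c genes and Aldh5a1, so this count rests on 4 loci. A change of sign was found within 100 kb of the midpoint for 26 of 119 members (21.8%), against 12.5% of protein-coding genes. Most of the 26 are neighbours in the Ugt1a, Ces2 to Ces4a and Akr1c arrays, so this count rests on few crossings. The ends of the gene differed in sign for 5 members (Ugt1a10, Ugt1a9, Ugt1a8, Akr1c14 and Akr1c19), against 2.97% of protein-coding genes. All 5 are of the Ugt1a and Akr1c arrays, and the Ugt1a bodies overlap.

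The promoters of late members were poor in CpG, as the printed Ugt2b37 and Sult2a8 sequences show with 2 each. The table of promoters matched 99 of 119 members, and where it listed several the first was used. For Sult1a1, Akr1c14, Sult3a1 and Sult3a2, among others, the start used lies inside the gene body, away from its annotated 5′ end. CpG at those 5′ ends was not counted. The number of CpG in the 300 bases had a median of 5.0 in 51 members above 0 and 2.0 in 48 members below 0, and of 17.0 and 3.0 in all protein-coding genes above and below 0. At least 10 CpG were found in 17 of 51 members above 0 (33.3%), against 68.5% of protein-coding genes above 0. Among members below 0 it was 1 of 48 (2.08%), against 31.1% of protein-coding genes below 0. That 1 gene was Gstk1, with 13 CpG and a score of -0.044. Most of the 48 are neighbours in a few arrays of related genes, so their promoters are not separate cases.

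Low numbers were common above 0 as well, where 17 of 51 members had at least 10 CpG. Gstt3 had 3 at a score of 1.89 and Gstt4 had 1 at 1.87. Sult1a1 had 0 CpG in its printed promoter at a score of 1.93. The start used there, 126676418, lies inside its gene body (126672865 to 126690443, minus strand). CpG at the annotated 5′ end of Sult1a1 was not counted. Aldh1a2 had 50 CpG, the most of any member, at 0.062. Sult2b1 had 13 and Gstp1 20. By family the median was 2.0 in Ugt, 6.0 in Gst, 1.0 in Sult, 2.0 in Ces, 2.0 in Akr1 and 9.0 in Aldh. The letters TATAAA, searched on both strands as a TATA box, were found in 19 of 99 member promoters (19.2%), against 13.3% of protein-coding promoters. Among members below 0 it was 11 of 48 (22.9%), near the 24.5% of protein-coding genes below 0, and among members above 0 it was 8 of 51 (15.7%), against 9.28%. The letters TGACNNNGC, the core of the antioxidant response element that the factor Nfe2l2 binds, were found on either strand in 6 of 99 (6.06%), against 13.3%. A match is a description of letters and not a bound site. The 6 were Gsta3, Gstm5, Akr1c19, Akr1cl, Aldh1a2 and Aldh9a1.

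**Figure D5:**
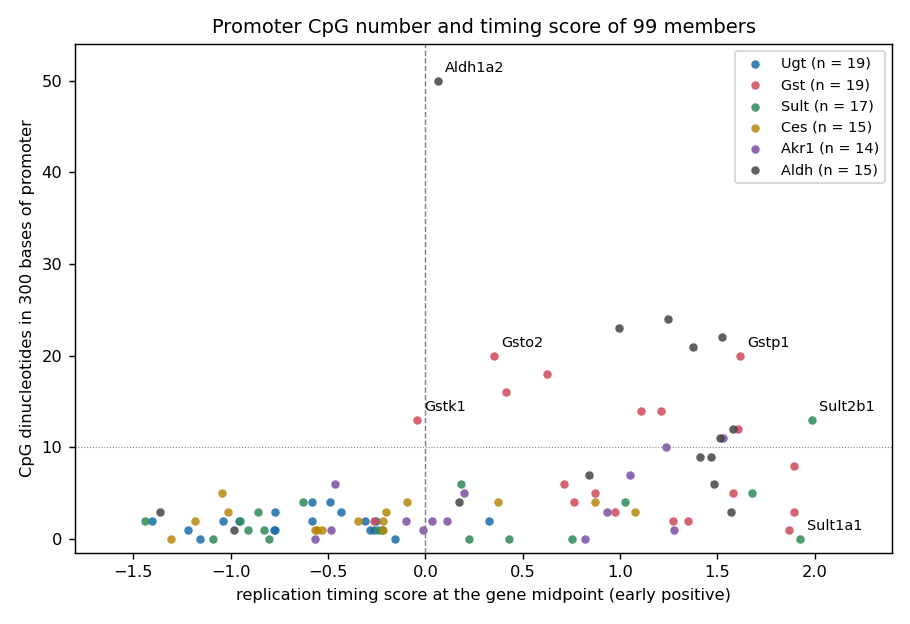
Number of CpG dinucleotides in 300 bases of promoter (vertical axis) against timing score (horizontal axis, no unit, early positive) for the 99 members with a listed promoter, coloured by family; the dotted line marks 10 CpG. Below 0 only Gstk1 lies above the line. Above 0 the numbers range from 0 (such as Sult1a1, at a start inside its gene body) to 50 (Aldh1a2).

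Most of the listed genes that work beside these enzymes were early, as were most protein-coding genes. The list held 53 genes for other conjugating and hydrolysing enzymes, cofactor supply, export and regulation. Of these 43 (81.1%) scored above 0, against 73.5% of all protein-coding genes, and the median was 1.02 in both. The regulators above 0 included the xenobiotic receptor genes Nr1i3 (1.83) and Nr1i2 (1.19), the oxidant sensor Keap1 (1.68) and its partner Nfe2l2 (1.42), the liver factor Hnf4a (1.28), Arnt (1.53) and Ppara (1.02). The dioxin receptor gene Ahr scored -0.79. Of 10 genes of cofactor supply 9 were above 0. Ugdh, which makes the UDP-glucuronic acid that Ugt enzymes use, was the highest of the list at 1.89, and Papss1, one of the sulfate donor genes, was the exception at -0.52.

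All 4 exporter genes were above 0, from Abcg2 at 0.24 to Abcc3 at 1.35. Among 15 other transferases 9 were above 0. Of all protein-coding genes 73.5% were above 0. Both classes are small, and neither count was tested against that share. The arylamine acetyltransferase genes Nat2 and Nat1 were the latest of the list at -1.47 and -1.46, and the microsomal glutathione transferase gene Mgst1 followed at -1.38. The other 2 microsomal genes, Mgst3 at 1.41 beside Aldh9a1 and Mgst2 at 0.52, were early. The epoxide hydrolase gene Ephx1 (1.84) and Nr1i3 (1.83) came next to Ugdh at the early end of the list.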

How the data were processed

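The submitters' processing notes name Bowtie2 and the build mm10. The deposited table holds a score that sets the early against the late library, smoothed by the authors over 300 kb according to the table's name. Counting, scaling and the handling of reads matching several copies of an array are not stated in the labels or the table, and DNA copy number was not analysed here. Per the labels' protocols, BrdU-labelled DNA was enriched with an antibody from sonicated DNA of 10000 cells (fragments of 100 to 600 bp) and then amplified. Depth is unknown. Of 384798 positions 384794 had a value. Unused columns of per-sample values numbered 0.

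Each gene of RefSeq GRCm38.p6 took the score nearest its midpoint, within 100 kb; for members the median distance was 1.71 kb. Runs of one sign end at gaps over 300 kb. The functions were tested on simulated data. No test was possible. Alternatives were another zero point, gene ends, gene bodies, a limit of 10 kb, loci as units, means, a band of 0.25 around 0 left out and, added after the data were seen, start sites. All members could be named; of the other genes, the 3 highest, the 3 lowest and the regulators (except 1 that is not reported here), with some added after their values were seen. Members and lists were chosen with earlier results of these data known. A planned comparison of protein sequences was not made because no protein sequences were used here. Python 3.11.15 and pandas 2.3.3 were used.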

Additional observations from a re-analysis of the deposited data

How the results depend on the processing

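No paired analysis was possible because there was 1 library per fraction. With each locus counted once, 32 of 44 loci were above 0 (median 0.93), with 1 of 3 for Ugt, 5 of 7 for Gst, 0 of 2 for Ces and 4 of 5 for Akr1, and the Sult median became 0.89. With scores measured from the autosomal median, 77 members were above it. Ugt then had 7 (median -0.19), Ces 8, and the Aldh median was 1.68. That setting turned 15 members: Ugt1a10 (0.079), Ugt1a9 (0.050), Ugt1a8 (0.021), Ugt2b34 (0.15), Ugt2b1 (0.042), Gsta3 (0.038), Gstk1 (0.26), Sult2a3 (0.060), Ces1a (0.088), Ces1b (0.085), Ces2f (0.10), Ces2g (0.21), Akr1c12 (0.20), Akr1c19 (0.29) and Aldh1a3 (0.19). At the lower-coordinate end Ugt had 5 members above 0, with Ugt1a10 at 0.16, Ugt1a9 at 0.088 and Ugt1a8 at 0.019, while Akr1c14 had -0.097 and Akr1c19 0.0097. At start sites, an alternative chosen after the data were seen, Ugt had 4 of 19 above 0, and the same 5 genes turned, to 0.16, 0.088, 0.019, -0.046 and 0.0097. The start used for Akr1c14 lies inside its gene body. Leaving out members within 0.25 of 0 left 1 Ugt member above 0. The higher-coordinate end, the mean over the gene body and the limit of 10 kb (which left Gsta1 without a value) turned no member. With these, no family count moved by over 1.5 times. The mean over members replaces only the medians, so it could not turn a member or a count. Joining members across gaps of up to 1000 kb left 44 loci. Members close together share smoothed values, and no experimental error can be given.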
